A study of Mus musculus with 40 samples.

Results

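Ribosome footprints of the cytosol were compared between untreated mouse embryonic fibroblasts and the same kind of cells after 1 h of 1 uM thapsigargin. All groups carried the GADD34-/- genotype, so no cell with the gene Ppp1r15a intact is among them and no result below compares genotypes. The genes described are those with a value in each of 4 libraries, the untreated and the 1 h library of replicates 1 and 2. This holds for 6258 of the 22417 genes of the deposited table, and 6225 of them passed the filter on low values and were tested. The whole study has 40 samples, footprints and mRNA from a cytosol and an endoplasmic reticulum (ER) fraction at 0, 0.5, 1, 2 and 4 h, with 2 replicates of each. The labels name no separate cultures for the replicates, so the p-values measure the spread between these libraries only, which may be technical.

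Thapsigargin blocks the calcium pump of the ER, and the store it empties is needed for protein folding there. The kinase PERK responds by phosphorylating the initiation factor eIF2alpha, which lowers initiation on most mRNAs while a few with upstream reading frames, among them Atf4, gain ribosomes. GADD34 brings a phosphatase back to eIF2alpha and so ends the response, and cells without it keep the factor phosphorylated. A footprint is the piece of mRNA that a ribosome shields from nuclease. Digitonin opens the plasma membrane and releases ribosomes of the cytosol, whereas those on the ER stay behind until dodecyl maltoside dissolves the membrane. Values are RPKM, reads per kilobase of gene and per fixed number of library reads, so they are shares of a library and do not show how much protein the cells made in all.

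The libraries were unequal in depth. Whole reads recovered from the values numbered 272340 and 5389104 in untreated replicates 1 and 2 and 1114750 and 686579 at 1 h, and a gene is listed from 4 reads on. Untreated replicate 1 listed 6845 genes and untreated replicate 2 listed 10724, against 10478 and 8688 at 1 h. A blank can therefore reflect depth, and 2178 genes listed in both 1 h libraries were blank in 1 or 2 of the untreated ones. Ppp1r15a was blank in all 4 libraries. Fibroblast markers were listed for 10 or 11 of 14 in each library, with Vim at 2340 and 2500 RPKM untreated. The 7 endothelial markers were blank in all 4, and Cd14 was the single macrophage marker listed among 10. Epithelial markers were listed for 1 or 2 of 8 in each library, and neural and muscle markers for 3 or 4 of 10. In such bulk libraries fewer cells of a type and less RNA per cell cannot be told apart. Each library also carries a factor, inferred from the values and not explained in the sources used here, of 52.46% and 53.95% in the untreated and 60.74% and 60.44% in the 1 h libraries. Taking it out moves the median log2 change of all genes tested from -0.15 to -0.34, so a change is best read against that median.

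The genes with the largest rises included Ddit3, a transcription factor of the stress response, Gadd45g, a growth arrest protein, and many replication-dependent histone genes. Promoters of 5 of them are shown because the histone genes moved together and share short elements. They are RefSeq sequences of build GRCm38.p6, from 250 bases before to 50 bases after the annotated start, read along the gene's strand. Capitals mark the CCAAT box (CCAAT) and the TATA box (TATAAA), searched on both strands. For Ddit3 and Gadd45g they also mark the C/EBP-ATF element (TGATGNAAN), the cAMP response element (TGACGTCA) and the AP-1 site (TGANTCA). No marked matches overlap.
Ddit3: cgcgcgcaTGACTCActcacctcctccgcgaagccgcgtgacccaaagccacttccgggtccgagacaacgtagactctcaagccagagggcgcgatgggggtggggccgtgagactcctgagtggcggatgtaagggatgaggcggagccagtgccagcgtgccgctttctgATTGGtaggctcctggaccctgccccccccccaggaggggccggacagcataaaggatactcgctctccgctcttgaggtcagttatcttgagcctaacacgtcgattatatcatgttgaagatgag
Gadd45g: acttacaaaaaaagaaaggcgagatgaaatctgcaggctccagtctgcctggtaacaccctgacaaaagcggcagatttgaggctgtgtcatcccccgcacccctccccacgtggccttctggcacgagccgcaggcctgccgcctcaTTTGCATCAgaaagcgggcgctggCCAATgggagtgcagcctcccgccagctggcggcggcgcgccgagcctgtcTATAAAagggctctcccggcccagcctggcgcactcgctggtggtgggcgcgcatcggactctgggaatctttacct
Hist1h2ae: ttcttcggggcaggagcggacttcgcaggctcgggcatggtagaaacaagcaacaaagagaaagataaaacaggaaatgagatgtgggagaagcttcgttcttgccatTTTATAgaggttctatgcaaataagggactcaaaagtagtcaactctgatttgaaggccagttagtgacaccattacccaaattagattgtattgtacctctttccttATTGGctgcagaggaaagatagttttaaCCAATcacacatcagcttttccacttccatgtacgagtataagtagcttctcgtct
Hist1h2ab: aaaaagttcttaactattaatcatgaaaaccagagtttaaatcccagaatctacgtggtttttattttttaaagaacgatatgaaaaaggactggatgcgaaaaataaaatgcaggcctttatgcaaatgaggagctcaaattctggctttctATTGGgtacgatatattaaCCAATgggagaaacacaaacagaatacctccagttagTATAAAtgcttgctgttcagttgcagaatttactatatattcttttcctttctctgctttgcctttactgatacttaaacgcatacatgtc
Hist1h2ac: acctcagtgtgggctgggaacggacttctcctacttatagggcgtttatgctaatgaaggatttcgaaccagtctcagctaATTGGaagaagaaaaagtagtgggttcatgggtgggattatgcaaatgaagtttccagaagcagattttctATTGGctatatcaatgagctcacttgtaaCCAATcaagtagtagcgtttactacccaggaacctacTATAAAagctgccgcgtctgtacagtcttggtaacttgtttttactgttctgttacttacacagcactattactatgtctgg
The Ddit3 promoter, at chr10:127290543-127290842 (plus strand), held 1 CCAAT box and 1 AP-1 site. The Gadd45g promoter, at chr13:51846425-51846724 (plus strand), held 1 CCAAT box, 1 TATA box and 1 C/EBP-ATF element. Hist1h2ae lies at chr13:23571171-23571470 (minus strand), Hist1h2ab at chr13:23750838-23751137 (plus strand) and Hist1h2ac at chr13:23683910-23684209 (minus strand). The promoter of Hist1h2ac held 3 CCAAT boxes and those of the other 2 histone genes 2 each. Each of the 3 held 1 match to the TATA box, with its first base at -32 in Hist1h2ac and -41 in Hist1h2ab. In Hist1h2ae the match is at -142 and on the opposite strand, so it need not be that gene's own TATA box. Among 53 promoters of 52 core histone genes that were tested and matched by name, 83.0% held a CCAAT box and 54.7% a TATA box. Among all 32851 promoters of the table these shares were 37.4% and 13.6%, and among 6080 promoters of genes tested 39.2% and 7.22%. The C/EBP-ATF element was in 3.95%, the cAMP response element in 1.79% and the AP-1 site in 7.81% of all promoters. Among promoters of genes tested these 3 shares were 1.99%, 3.39% and 4.52%, and among the core histone promoters 5.66%, 7.55% and 1.89%. A match describes letters in this window and not a site in use.

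After 1 h, 73 genes rose and 2 fell in cytosol footprints, which is 1.17% and 0.0321% of the 6225 genes tested (limma on log2(RPKM + 1), Benjamini-Hochberg adjusted p under 0.05). Of the 73, 27 were histone genes, 32 were marked TRUE in a column without a heading of the deposited table, and 14 were neither. Most secretory and membrane proteins in the lists used here carry that mark, such as 50 of 51 matrix and secreted genes and 33 of 35 ER chaperones. In the list for ER entry and transport 29 of 50 do, and among respiratory chain genes, which are mitochondrial, 19 of 53. Of the ribosomal proteins 0 of 82 do. What the mark stands for is not stated in the sources used here. The 14 others were Ddit3, Atf4, Atf5, Gadd45a, Gadd45b, Gadd45g, Id1, Iqgap1, Clk1, Gpx1, Sepw1, 2700094K13Rik, Creb3 and Rabggtb. The 2 that fell were Cpsf2, a subunit of the mRNA cleavage and polyadenylation complex, and Klhl9, an adaptor of a ubiquitin ligase.

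Without regard to the threshold, the 1 h libraries lay above both untreated ones for 1213 genes (19.5%) and below both for 1811 (29.1%). At an unadjusted p under 0.05, 547 genes were higher and 433 lower. The 73 that rose were short, with a median coding length of 447 bases against 1338 for all genes tested. Across the 6225 genes, Spearman's rho between coding length and log2 change was -0.22, a description over genes that share libraries and depth. The calls rest on both replicate 2 libraries: without the untreated one, or without the 1 h one, 0 genes passed, and without untreated replicate 1 the rises numbered 420. Without 1 h replicate 1 they numbered 55, of which 37 were among the 73. With the library factor taken out, 32 genes rose and 2 fell. With the untreated and 1 h libraries fitted alone, 0 rose and 0 fell.

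**Figure D1:**
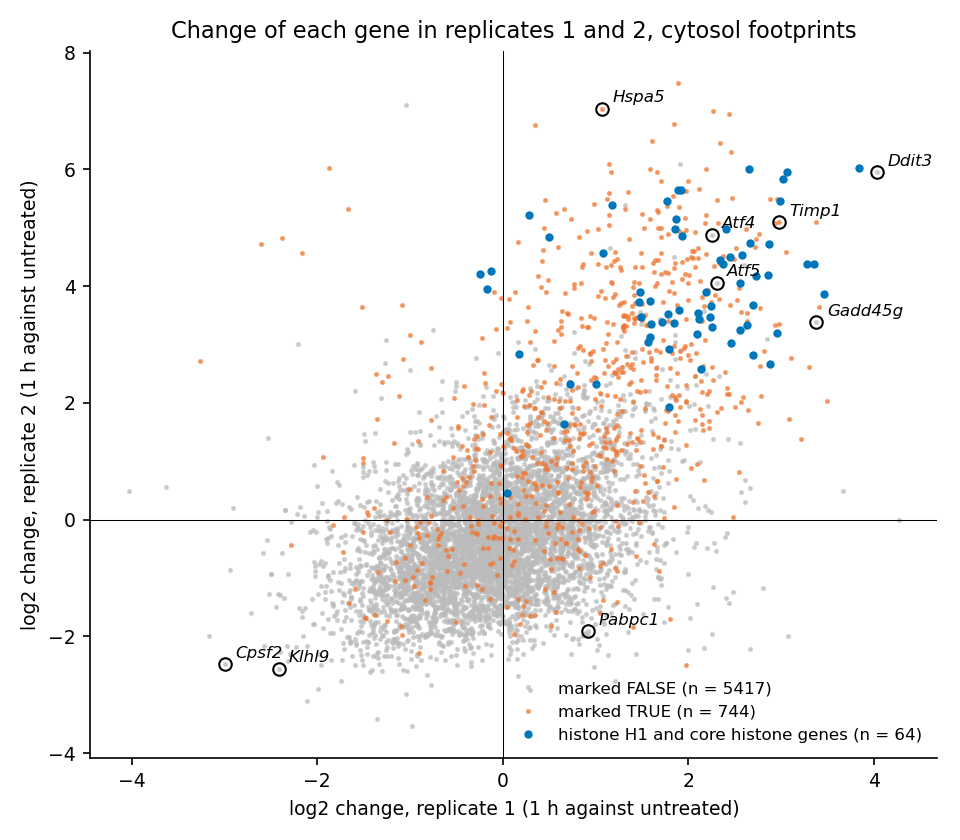
Each point is 1 gene tested, with its log2 change of cytosol footprints (1 h against untreated) in replicate 1 on the x axis and in replicate 2 on the y axis. Histone genes (blue) and many genes marked TRUE (orange) lie to the upper right, while the spread of all genes around the diagonal gives a Spearman's rho of 0.46.

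Among transcription factors of the stress response Ddit3, Atf4 and Atf5 rose. Ddit3, which encodes CHOP, stood at 15.2 and 7.12 RPKM in the untreated libraries and at 265 and 503 RPKM at 1 h. The groups were far apart, but the first untreated value rests on 4 reads. The rise was 5.00 on the log2 scale (SE 0.50, limma adjusted p = 0.0071), from 11.2 ± 5.73 to 384 ± 168 RPKM (mean ± SD, n = 2), and it passed without either replicate 1 library.

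Atf4, the factor that turns on amino acid and redox genes in this response, went from 196 and 120 RPKM to 943 and 3570 RPKM. The 1 h libraries differed from each other more than the untreated ones did, yet both were higher. Its log2 change was 3.57 (SE 0.72, limma adjusted p = 0.0473), and with the library factor taken out the adjusted p was 0.0771. Atf5, whose mRNA carries the same kind of upstream frames, went from 40.7 and 37.3 RPKM to 206 and 637 RPKM, a rise of 3.18 log2 units (SE 0.55, limma adjusted p = 0.0307). Again the groups did not overlap.

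Of 27 names in a list of mRNAs known for regulatory upstream frames, 16 were tested. Among these 3 rose, against 1.17% of all genes, and 0 fell. The median log2 change was 0.71 against -0.15 over all genes. The 1 h libraries lay above both untreated ones for 8 of the 16 and below both for 5 (50% and 31.2%, against 19.5% and 29.1% over all genes). Ifrd1, a transcriptional co-regulator, had a log2 change of 2.08 that did not pass (limma adjusted p = 0.0615). Eprs, a tRNA synthetase for glutamate and proline, stood at -0.87 and Smcr8 at -1.12, neither past the threshold. Ppp1r15b, the paralogue of GADD34 that is made without stress, was not tested. It was blank in untreated replicate 1 and stood at 0.430 RPKM in replicate 2, against 11.2 and 3.36 RPKM at 1 h.

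Of 31 genes tested that ATF4 and CHOP are known to turn on, 1 rose (3.23%, against 1.17% of all genes) and 0 fell. The gene that rose is Ddit3. The median log2 change was 0.12, with 11 genes above and 8 below both untreated libraries, where 19.5% and 29.1% of all genes were. The lowest was Cebpg, a partner of ATF4, at -1.77, which did not pass (limma adjusted p = 0.25). The 23 cytosolic aminoacyl-tRNA synthetases tested, many of them ATF4 targets, had a median of -0.21, and 0 rose or fell. Wars, for tryptophan, went from 51.3 and 90.2 RPKM to 32.8 and 26.5 RPKM and did not pass.

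**Figure D2:**
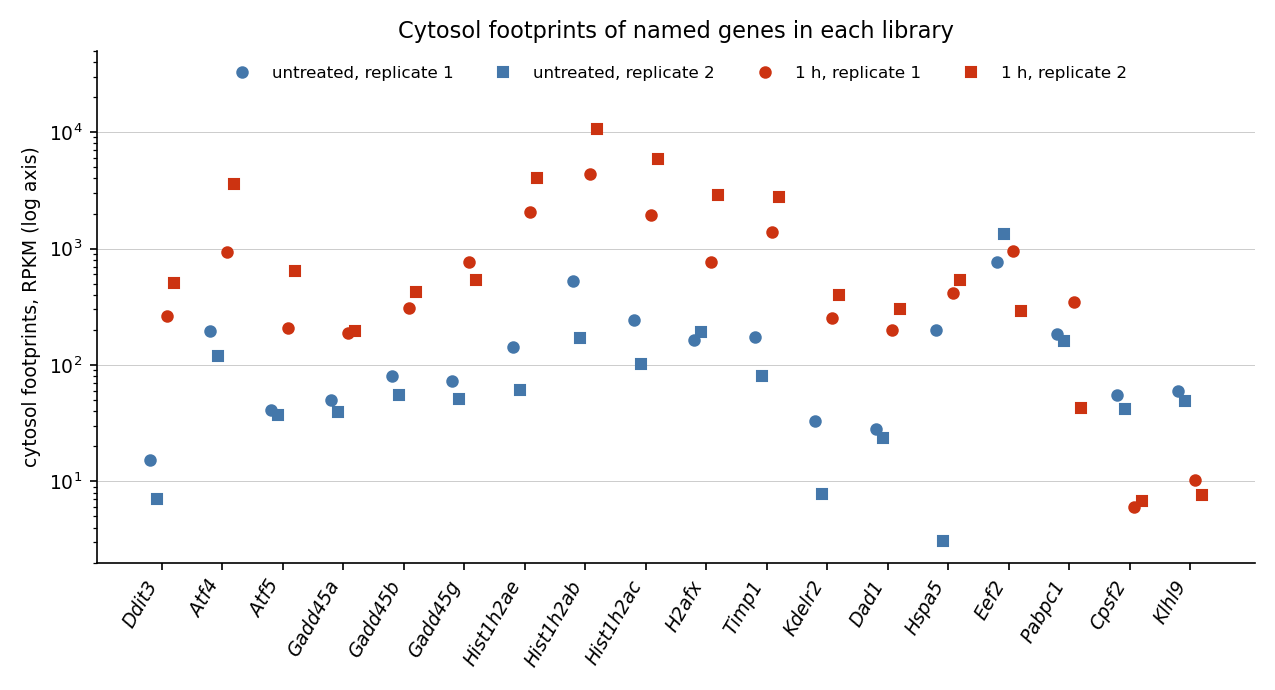
Cytosol footprints in RPKM (log axis) of named genes in the 4 libraries, untreated in blue and 1 h in red, with circles for replicate 1 and squares for replicate 2. Untreated Hspa5 spans 198 to 3.10 RPKM, while the 2 Ddit3 values at 1 h, 265 and 503 RPKM, lie above both untreated ones.

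All 3 growth arrest genes of the Gadd45 family rose, where 1.17% of all genes did. Their small acidic proteins bind stress kinases and cell cycle regulators. Gadd45g had 72.4 and 51.0 RPKM untreated and 764 and 542 RPKM at 1 h. The log2 change was 3.38 (limma adjusted p = 0.0185, SE 0.50). Matched by replicate number both changes were 3.38, but the pairing of libraries was not settled, so this match is no measure of agreement. Gadd45b went from 79.9 and 55.7 RPKM to 306 and 422 RPKM (log2 change 2.41, SE 0.48), and Gadd45a from 50.4 and 39.3 RPKM to 189 and 195 RPKM (log2 change 2.08, SE 0.42). Their limma adjusted p-values were 0.0442 and 0.0463. Gadd45b and Gadd45a no longer passed with the factor taken out, at adjusted p-values of 0.0749 and 0.0791, and none of the 3 passed without 1 h replicate 1. Gadd45gip1, a mitochondrial ribosome protein that binds the Gadd45 proteins, stood at 0.30 and did not pass.

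Among 43 immediate and delayed early genes tested, 1 rose (2.33%, against 1.17% of all genes). That was Id1, an inhibitor of basic helix-loop-helix factors. It went from 95.0 and 111 RPKM to 582 and 1090 RPKM (log2 change 2.94, SE 0.51, limma adjusted p = 0.0308). The list's median was 0.69, and 25 of 43 were above both untreated libraries while 3 were below, against 19.5% and 29.1% of all genes. Values that did not pass were 4.63 for Ctgf, a secreted matrix regulator (adjusted p = 0.0516), 3.17 for Ier3, a survival factor (adjusted p = 0.107), and 2.14 for Ier2 (adjusted p = 0.0615, all limma). The lowest was Klf4 at -0.84, counted from 4 reads in untreated replicate 1.

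Histone genes made up 27 of the 73 rises. Of 58 replication-dependent core histone genes tested, 26 rose and 0 fell, where 1.17% of all genes rose. The 1 h libraries lay above both untreated ones for 55, or 94.8% against 19.5% over all genes. With the library factor taken out 16 rose, and with blanks read as 0, 17. Like all calls here, those of this list rest on both replicate 2 libraries. The median log2 change was 2.93, with 2.17 in replicate 1 and 3.92 in replicate 2. Leaving out 1 library gave medians from 2.51 (without 1 h replicate 2) to 3.61 (without 1 h replicate 1). Together the core histone genes took 3.99% and 1.86% of the RPKM in the untreated libraries and 9.05% and 19.9% at 1 h. Their mRNAs end in a stem-loop in place of a poly(A) tail.

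Hist1h2ae, a gene for histone H2A whose promoter is printed above, stood at 142 and 60.5 RPKM untreated and at 2060 and 4010 RPKM at 1 h. Its log2 change was 4.94 (SE 0.53, limma adjusted p = 0.0071), the second largest of all genes called. Hist1h2ab went from 526 and 172 RPKM to 4400 and 10700 RPKM, and Hist1h2ac from 241 and 102 RPKM to 1960 and 5880 RPKM. In all 3 the untreated values are higher in replicate 1 and the 1 h values are higher in replicate 2. Hist1h2bm, for H2B, was even between the untreated libraries at 35.5 and 37.7 RPKM, and reached 373 and 806 RPKM (log2 change 3.87, SE 0.45, limma adjusted p = 0.0109).

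The rises covered genes for H2A, H2B and H4. Hist4h4, for H4, went from 254 and 105 RPKM to 1350 and 3350 RPKM. The lowest of the list, Hist2h3b for H3, went from 517 and 357 RPKM to 819 and 1110 RPKM, a log2 change of 1.15 that did not pass. H2afx, a variant that marks DNA breaks and is made from both stem-loop and polyadenylated mRNA, rose from 165 and 191 RPKM to 761 and 2860 RPKM (log2 change 3.05, limma adjusted p = 0.0442), a call lost with the factor taken out (adjusted p = 0.0732). Near-identical histone copies share reads, so how a rise is divided among single names is uncertain.

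Linker histones and polyadenylated variants give a contrast in values. Of 6 linker histone genes tested, 0 passed, with a median of 2.45. All 6 were above both untreated libraries, against 19.5% of all genes. Hist1h1a went from 595 and 430 RPKM to 2270 and 12500 RPKM (log2 change 3.39, limma adjusted p = 0.069). H1f0, the polyadenylated member, was at 0.26, from 49.5 and 35.8 RPKM to 51.3 and 49.7 RPKM. The 9 polyadenylated histone variants tested had a median of 0.20, and 0 passed. Their highest was H2afj at 0.96 and their lowest H2afy, for macroH2A, at -1.10.

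**Figure D3:**
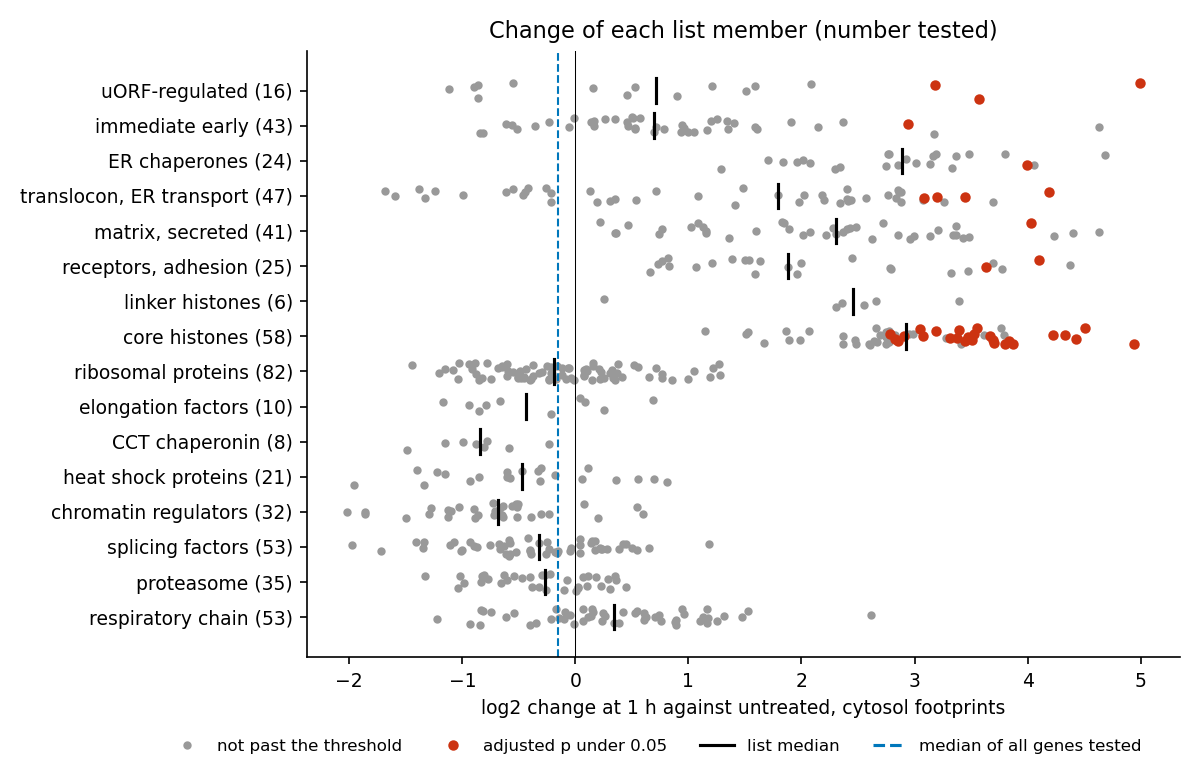
Each point is the log2 change of 1 list member in cytosol footprints, 1 h against untreated, with genes past the threshold in red, the list median as a black bar and the median of all genes tested, -0.15, as a dashed line. Core histones, with a median of 2.93, lie to the right of the dashed line throughout, and the CCT chaperonin, with a median of -0.84, to its left.

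Genes marked TRUE had a higher median log2 change than the rest. Among 744 tested genes marked TRUE, 32 rose and 0 fell, the median log2 change was 1.37, and 371 (49.9%) were above both untreated libraries. Among 5481 marked FALSE, 41 rose and 2 fell, the median was -0.25, and 842 (15.4%) were above both. Of the marked genes, 10 rose with the library factor taken out and 13 without 1 h replicate 1. Without untreated replicate 1 their median was 2.17 with 341 rises, without untreated replicate 2 it was 0.55 with 0 rises, and without 1 h replicate 2 there were 0 rises. The marked genes took 5.96% and 4.55% of the cytosol RPKM untreated and 10.7% and 11.3% at 1 h.

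The untreated libraries disagreed on these genes. Matrix and secreted genes took 0.491% of the RPKM in untreated replicate 1 and 0.0408% in replicate 2, then 1.24% and 0.946% at 1 h. ER chaperones took 0.264% and 0.0227%, then 0.7% and 0.438%. In the ER fraction the marked genes took 29.7% and 33% untreated and 18.4% and 17.3% at 1 h. These shares of the cytosol libraries thus differ between the untreated replicates and move with the treatment. Their part in the results that follow was not tested.

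**Figure D4:**
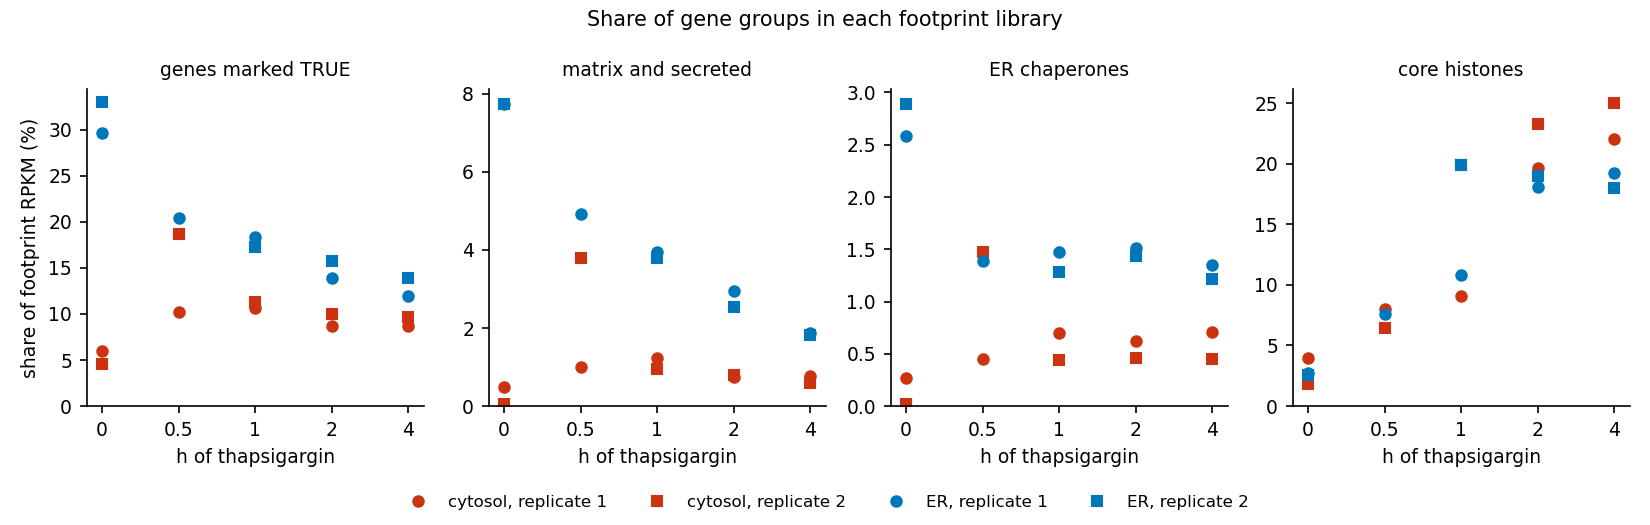
Share of the footprint RPKM (%) in 4 groups of genes by h of thapsigargin, cytosol in red and ER in blue, with circles for replicate 1 and squares for replicate 2; the ER has 1 library at 0.5 h. Untreated cytosol replicate 2 holds 0.0408% matrix and secreted genes, the lowest of the libraries drawn, and 1 h cytosol replicates hold 1.24% and 0.946%.

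In the list of genes for entry into the ER, sugar transfer there and transport out of it, 4 of 47 tested rose and 0 fell. Over all genes 1.17% rose. The list's median was 1.79. Kdelr2, the receptor that returns chaperones to the ER, went from 33.2 and 7.85 RPKM to 252 and 399 RPKM (a rise of 4.19 on the log2 scale, SE 0.61, limma adjusted p = 0.0185). Dad1, a subunit of the enzyme that adds sugar chains, went from 28.2 and 23.8 RPKM to 200 and 305 RPKM (log2 change 3.20, SE 0.46, limma adjusted p = 0.0185). Its untreated values are close, but the first rests on 5 reads. Ssr4, of the translocon-associated complex, and Sec62, a translocon partner, rose by 3.45 and 3.08 log2 units (limma adjusted p = 0.0297 and 0.0341). Each had 5 reads in untreated replicate 1. With the library factor taken out Ssr4 and Sec62 did not pass (adjusted p = 0.0531 and 0.0607). Without untreated replicate 1 the list's median was 2.49, and without untreated replicate 2 it was 0.79. It was 1.94 without 1 h replicate 2 and 0.90 without 1 h replicate 1. Like all calls here, those of this list rest on both replicate 2 libraries. Low in the list were coat proteins of transport vesicles, which are not membrane-spanning, with Sec24a, a cargo adaptor, at -1.69 and Sec23a at -1.39, neither past the threshold.

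Of 24 ER chaperones and folding enzymes tested, 1 rose (4.17%, against 1.17% of all genes). That was Sdf2, at 3.99 (SE 0.68, limma adjusted p = 0.0291), with 4 reads in untreated replicate 1. The 1 h libraries were above both untreated ones for 18 of the 24, against 19.5% of all genes, and the median was 2.89, with 1.67 in replicate 1 and 4.17 in replicate 2. Hspa5, the chaperone BiP, had 198 and 3.10 RPKM untreated and 416 and 540 RPKM at 1 h. Most of its log2 change of 4.06 comes from the low untreated replicate 2, and it did not pass (SE 1.44, limma adjusted p = 0.211). Calr, a calcium-binding chaperone, went from 243 and 5.85 RPKM to 905 and 1220 RPKM and did not pass either (log2 change 4.68, limma adjusted p = 0.1). Without untreated replicate 1 the list's median was 4.17, and without untreated replicate 2 it was 1.30. Over all genes tested in these fits the medians were 0.07 and -0.21.

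Matrix and secreted genes had a median of 2.30 over 41 tested, with 0.87 in replicate 1 and 3.89 in replicate 2. One rise passed. Timp1, an inhibitor of matrix metalloproteases, went from 175 and 80.2 RPKM to 1380 and 2760 RPKM (log2 change 4.03, SE 0.57, limma adjusted p = 0.0185). Hspg2, the large matrix protein perlecan, was the lowest at 0.22, from 12.9 and 0.411 RPKM to 6.38 and 2.61 RPKM. Without untreated replicate 2 the list's median was 0.49, and without untreated replicate 1 it was 4.22.

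Among receptors and surface proteins 2 of 25 rose, against 1.17% of all genes. Cd44, a receptor for hyaluronan, went from 48.9 and 6.09 RPKM to 227 and 456 RPKM (log2 change 4.1, SE 0.84, limma adjusted p = 0.0482). Ly6e, a lipid-anchored surface protein, went from 47.0 and 6.35 RPKM to 178 and 301 RPKM (log2 change 3.63, SE 0.74, limma adjusted p = 0.0482). Both have replicate 2 as the lower untreated library, and with the factor taken out 0 of 25 passed. Other marked genes among the 12 largest rises were Plau, the protease urokinase, at 4.23 from 7.40 and 2.77 RPKM, and Tm4sf1, a tetraspan surface protein, at 4.01 from 22.2 and 14.8 RPKM. In untreated replicate 1 these values rest on 5 reads for Plau and 7 for Tm4sf1.

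The change at 1 h was then compared between fractions. This contrast reuses the cytosol libraries that gave the rises above, so for genes picked by those rises it is no separate support. In 3207 genes tested, 79 (2.46%) had a lower log2 change in the ER than in the cytosol and 0 (0%) a higher one, and 73 of the 79 are marked TRUE and 0 are histones. Timp1 had 1610 and 1920 RPKM in the untreated ER and 1130 and 2040 RPKM at 1 h, which overlap, and the difference between the fractions, ER minus cytosol, was -4.25 log2 units (SE 0.75, limma adjusted p = 0.02). For Kdelr2 the ER values were 386 and 556 RPKM untreated and 285 and 308 RPKM at 1 h, a difference of -4.84 between the fractions (SE 0.75, limma adjusted p = 0.02). In the ER alone the log2 changes were -0.21 for Timp1 and -0.64 for Kdelr2, and neither passed (limma adjusted p = 0.77 and 0.28). Over the 535 marked genes tested the median difference was -2.96, against 0.18 over 2672 not marked.

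Matrix genes were opposite in sign in their medians, -1.41 in the ER, where 21 of 44 fell, and 2.30 in the cytosol. Core histone genes had medians of 2.53 in the ER, where 50 of 57 rose, and 2.93 in the cytosol. Among all 3633 genes tested in the ER, 6.5% rose and 6.61% fell. For Ddit3 the ER change was 5.33 and the difference between the fractions 0.33 (SE 0.65, limma adjusted p = 0.96). The factor carried by each library fell in the ER, from 45.95% and 45.25% to 37.69% and 35.9%, and rose in the cytosol. With it taken out, 0 genes differed between the fractions, and none differed without 1 of the untreated ER libraries, 1 h ER replicate 2, untreated cytosol replicate 2 or 1 h cytosol replicate 1. Without 1 h ER replicate 1 the count was 20, and without untreated cytosol replicate 1 it was 450.

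**Figure D5:**
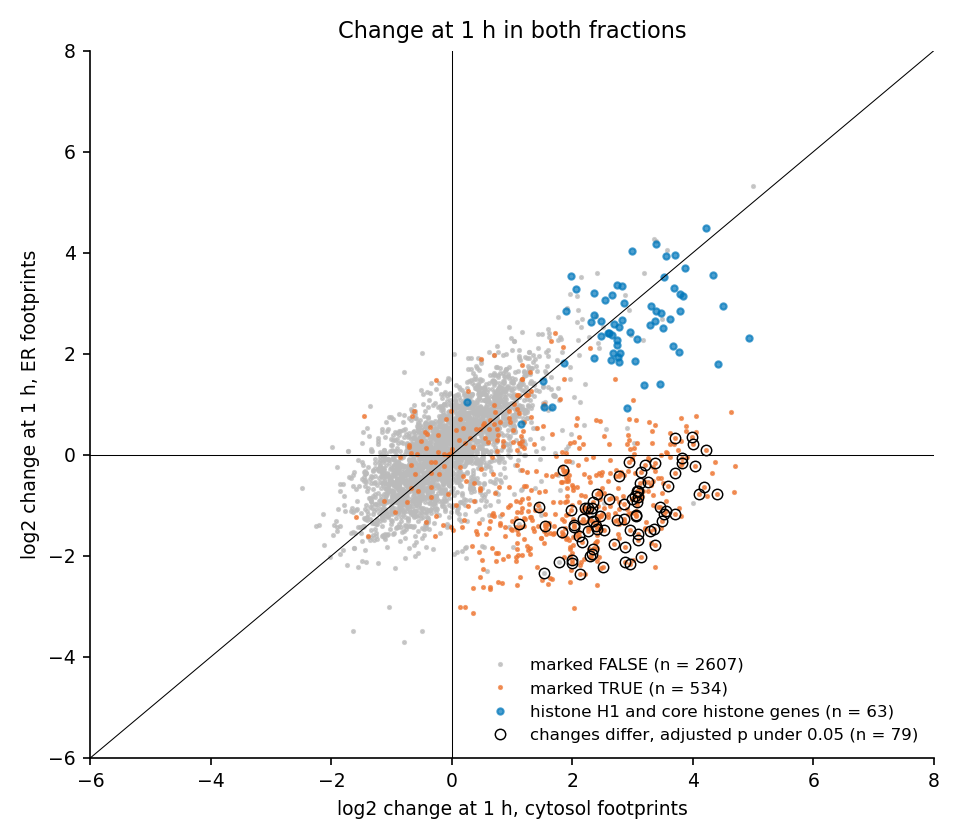
Log2 change at 1 h in cytosol footprints (x axis) against ER footprints (y axis), 1 point for each gene tested in both, with the line of equal change. The 79 circled genes, all below that line, are mostly marked TRUE (orange), and histone genes (blue) are positive on both axes.

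Of the genes with lower footprints at 1 h, 2 passed. Cpsf2 went from 55.0 and 42.2 RPKM to 6.03 and 6.75 RPKM (log2 change -2.74, SE 0.49), and Klhl9 from 59.3 and 49.4 RPKM to 10.3 and 7.60 RPKM (log2 change -2.48, SE 0.45), both with a limma adjusted p of 0.0341. The groups are well apart in both genes. Neither passed without any 1 of the 4 libraries.

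Next were taken the 10 genes with the smallest unadjusted p among those whose 1 h libraries lay below both untreated ones. These did not pass, with limma adjusted p from 0.064 to 0.08. They were Usp47 and Rad23b of ubiquitin turnover, Cad, the enzyme that starts pyrimidine synthesis, Acsl4, a fatty acid ligase, Peg3, Cggbp1, Atad2, Msh6 of mismatch repair, Hnrnpd, an RNA binding protein, and Cand1. Cad went from 28.6 and 39.4 RPKM to 5.30 and 7.91 RPKM and Hnrnpd from 297 and 198 RPKM to 53.7 and 69.4 RPKM. That the groups do not overlap in these 10 follows from how they were chosen.

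Genes for cytosolic and nuclear housekeeping were mostly at or below the median of all genes, and 0 of them passed in either direction in the lists that follow. The CCT chaperonin, which folds actin and tubulin, had a median of -0.84, with 7 of 8 subunits below both untreated libraries. Tcp1 went from 424 and 285 RPKM to 194 and 78.0 RPKM, and Cct3 was the highest at -0.23. Chromatin and transcription cofactors had a median of -0.69 with 18 of 32 below, splicing factors -0.32 with 27 of 53 below, heat shock proteins -0.48 with 11 of 21 below and proteasome subunits -0.27 with 14 of 35 below, against 29.1% below among all genes. Trim28, a silencing cofactor, was the lowest chromatin gene at -2.02, from 107 and 168 RPKM to 39.2 and 26.7 RPKM.

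The protein synthesis machinery differed between the 1 h replicates. For 82 ribosomal protein genes the median was -0.19, made of 0.44 in replicate 1 and -0.73 in replicate 2, and 0 passed. Without 1 h replicate 2 it was 0.28, without untreated replicate 2 it was 0.10, and without 1 h replicate 1 it was -0.63. Eef2, an elongation factor, had 761 and 1340 RPKM untreated and 947 and 293 RPKM at 1 h. Pabpc1, the poly(A) binding protein, had 183 and 162 RPKM untreated and 346 and 42.4 RPKM at 1 h, so its replicates moved in opposite directions. Eef1a1 had 5270 and 7230 RPKM untreated and 5410 and 2780 RPKM at 1 h, and none of the 3 passed.

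Eif4a2, the helicase paralogue of the initiation complex, stood out among 43 initiation factors at 2.10, from 120 and 49.8 RPKM to 325 and 345 RPKM, and did not pass (limma adjusted p = 0.064). Eif2s3x, the gamma subunit of eIF2, was the lowest at -1.27, from 270 and 269 RPKM to 113 and 109 RPKM. Actb, for beta-actin, had 7170 and 16500 RPKM untreated and 10300 and 15000 RPKM at 1 h, a log2 change of 0.19 that was -0.41 without untreated replicate 1. In the cytoskeleton list 1 of 44 rose, against 1.17% of all genes. That was the scaffold Iqgap1, from 22.5 and 19.5 RPKM to 93.2 and 77.7 RPKM (log2 change 1.97, SE 0.39, limma adjusted p = 0.0442). Its limma adjusted p was 0.0771 with the factor taken out. Talin, Tln1, was the lowest there at -1.77.

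Other lists gave few or no calls. The 53 respiratory chain genes had a median of 0.34, with 22 above and 6 below both untreated libraries (41.5% and 11.3%, against 19.5% and 29.1% over all genes), and 0 passed. Among 10 fatty acid synthesis genes, with a median of 0.60, 4 were above and 5 below both, and 0 passed. They ran from Fasn, the fatty acid synthase, at -2.25 (limma adjusted p = 0.1), from 40.5 and 82.8 RPKM to 11.4 and 11.4 RPKM, to Scd2, a fatty acid desaturase, at 3.47 (adjusted p = 0.068), from 46.5 and 8.28 RPKM to 186 and 287 RPKM. The 49 replication and mitosis genes had a median of -0.19, with Ube2c highest at 1.54 and Ccne2 lowest at -1.82, and the 95 zinc finger protein genes of the Zfp series had 0.18. In the NF-kB list the replicates parted, with medians of -0.84 in replicate 1 and 3.64 in replicate 2 over 13 genes. Ptgs2, the prostaglandin synthase of that list, went from 48.8 and 4.47 RPKM to 109 and 372 RPKM and did not pass. The p53 list of 12 genes had a median of 0.04, with Cdkn1a, for p21, at 0.76.

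The mRNA of the cytosol was measured for fewer genes. Recovered reads in replicates 1 and 2 numbered 258515 and 48204 untreated and 279257 and 110720 at 1 h. In replicate 2 genes were listed from 1 read on, with a median of 2 reads. At this depth an absence of calls does not show that mRNA was unchanged. Among 1923 tested, 0 rose and 0 fell (limma, 0% in each direction), with 127 at an unadjusted p under 0.05 and a median log2 change of -0.69. Ddit3 mRNA stood at 84.2 and 133 RPKM untreated and at 156 and 87.0 RPKM at 1 h, which overlap, for a log2 change of 0.14. Atf4 mRNA stood at 50.3 and 107 RPKM and at 62.9 and 47.2 RPKM, a log2 change of -0.42. Footprints relative to mRNA, fitted in 1 model of both assays, gave 0 calls in 1702 genes (limma), with 90 at an unadjusted p under 0.05. The median of that fit was 0.483 log2 units. Ddit3 had the value 4.86 there (SE 0.86, limma adjusted p = 0.071) and Atf4 3.99 (SE 1.01, adjusted p = 0.93). Of the 58 core histone genes, 3 had mRNA values in all 4 libraries, since most were blank in 1 or more of them.

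The other times of the cytosol series share the untreated libraries with the 1 h comparison, so their values are set side by side. Ddit3 had log2 changes of 4.11, 5.00, 6.02 and 5.64 at 0.5, 1, 2 and 4 h. Hist1h2ae had 3.89, 4.94, 5.50 and 5.40 and Gadd45g 3.31, 3.38, 4.78 and 4.72 at those times. These genes had higher values at 2 h than at 0.5 h. Timp1 had 5.09, 4.03, 3.89 and 3.18 and Kdelr2 4.56, 4.19, 3.99 and 3.22, with the highest value at 0.5 h in both. Cpsf2 had -2.38, -2.74, -3.00 and -3.04, and Cad had -1.24, -2.20, -3.44 and -3.28. Differences between times were not tested.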

How the data were processed

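Ribosome footprints and mRNA were sequenced from digitonin and dodecyl maltoside fractions, per the labels' protocols. The authors deposited RPKM values in 1 table, and a gene without a value is left blank. The submitters' processing notes name Bowtie and hg19, a human build, while the genes are mouse genes, so no coordinates were taken from the table. Their unit follows from the numbers: for 12822 of 12824 genes listed in 2 or more of 29 libraries, they are whole reads times 1 factor per library over a length, within 9.6e-07 of a whole number. Scaling includes a factor per library that no source used here explains.

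The test was limma 3.58.1 under R 4.3.3, with trend and without robust fitting, applied to log2(RPKM + 1) in all 10 cytosol footprint libraries. A gene needed a mean RPKM of 1 or more. Blanks counted as 0 in that mean only, and a gene was tested where each compared library listed it. Fold changes on this scale understate the change of low genes. The same test was run on cytosol mRNA, on footprints against mRNA, and on the difference between fractions. P-values are two-sided, Benjamini-Hochberg adjusted over all genes tested, at a threshold of 0.05. Exact permutation of 2 against 2 libraries cannot go below 0.333.

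Members and gene lists were chosen with earlier results of these data known. Named were the 12 largest rises and falls past the threshold. Falls were filled up by the smallest unadjusted p among genes whose 1 h libraries lay below both untreated ones. A panel of stress and translation genes was added, with the called members of each list and its highest and lowest. A few more were picked after their values were seen (Ifrd1, Eprs, Ier2, Sec23a and the selenoproteins). The steps were tested on simulated data. Alternatives covered pseudocount, filter, scaling, blanks, libraries fitted, a replicate block, robust fitting, each library left out, and a count test (voom, in limma) on recovered reads. Reads are not counted by molecular identifiers. Drawings used matplotlib. ER footprints at 0.5 h, replicate 2, hold no values. For 15 groups of gene names the values are identical, so their reads cannot be told apart.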

Additional observations from a re-analysis of the deposited data

Results flagged for a closer look

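The change at 1 h differed between the fractions for 79 genes, each with a lower log2 change in ER footprints than in cytosol footprints in a test of the difference itself (limma adjusted p under 0.05). The 6 with the lowest values were Yipf3, a Golgi membrane protein, at -5.17, Sparc, a secreted matrix protein, at -5.17, Fkbp9, an ER folding enzyme, at -5.15, Rcn1, an ER calcium-binding protein, at -5.11, Ssr1, a translocon-associated protein, at -5.01, and Cd44, a hyaluronan receptor, at -4.87 log2 units. For Sparc the cytosol held 180 and 12 RPKM untreated and 918 and 1140 RPKM at 1 h, while the ER held 1860 and 2810 RPKM untreated and 1560 and 1150 RPKM at 1 h. For Rcn1 the cytosol went from 23.7 and 2.15 RPKM to 86.4 and 52.3 RPKM and the ER from 280 and 230 RPKM to 51.3 and 61.1 RPKM. In all 6 genes untreated replicate 2 of the cytosol is the lower of the untreated libraries. The 6 were picked by the lowest ER minus cytosol values, so low untreated cytosol values and falls in the ER are favoured by the choice. Of the 6, Yipf3 and Cd44 rose in the cytosol comparison by itself, and neither passed there with the factor taken out. In the ER by itself 4 of the 6 fell, where 6.61% of all genes tested there did. Rcn1 fell by 2.16, Ssr1 by 2.13, Fkbp9 by 2.01 and Yipf3 by 1.79 on the log2 scale (limma adjusted p = 0.005, 0.022, 0.01 and 0.035). The share of marked genes in the cytosol and the factor of each library move with these differences, and their part was not tested beyond the fit without the factor, which made 0 calls.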

How the results depend on the processing

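Both counts, 73 rises and 2 falls, stayed within 1.5 times with a pseudocount of 0.25, without the filter, with a mean of at least 10 RPKM and with robust fitting. With the library factor taken out there were 32 rises, each of them among the 73, and with the untreated and 1 h libraries alone 0 rises and 0 falls. voom on recovered reads gave 291 rises and 108 falls in 3925 genes, including 72 of the 73. Falls numbered 5 with a pseudocount of 5, 6 with median centring, which gave 52 rises, and 1 with blanks read as 0. Leaving out 1 library gave 0 to 420 rises and 0 to 1 falls, with 0 rises without either replicate 2 library.

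The fit with a replicate block gave 149 rises and 22 falls in footprints, 16 and 35 in mRNA, 1 rise in footprints against mRNA, and 2 and 140 between the fractions. Deviations of same-numbered libraries correlated at 0.131 between untreated and 1 h and from -0.192 to 0.625 over the 5 times, where the values below 0.1 all involve 0.5 h, and the labels do not say what a number shares, so the pairing was not settled.

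The 79 genes that differed between fractions became 43 with a pseudocount of 0.25, 24 with median centring, 0 with the factor taken out, 46 lower and 1 higher with blanks read as 0, 0 with the untreated and 1 h libraries alone, and 0 to 450 lower and 0 to 1 higher without single libraries. The cause of these moves was not tested. No named gene past the threshold changed sign in these fits. Among named genes short of it, Hspg2 was at -0.08 with a pseudocount of 5. Without single libraries Hspg2 ran from -1.43 to 1.87, Actb from -0.41 to 0.79, Gadd45gip1 from -0.32 to 0.92, Pabpc1 from -2.00 to 1.00, Vim from -1.25 to 0.55, and the difference between fractions for Ddit3 from -0.18 to 0.85. Depth limits low genes most, with 15 reads for the median gene in untreated replicate 1.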

Other observations

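Selenoproteins, which carry selenocysteine and include several antioxidant enzymes, were noticed after their values were seen, so no test of the group is given. Of 10 tested, 3 rose, where 1.17% of all genes did. Gpx1, a glutathione peroxidase, went from 89.1 and 72.1 RPKM to 379 and 403 RPKM (log2 change 2.27, limma adjusted p = 0.0459). Sepw1 went from 159 and 76.0 RPKM to 582 and 688 RPKM (log2 change 2.51, limma adjusted p = 0.0355), and 2700094K13Rik, known as selenoprotein H, from 33 and 54.1 RPKM to 244 and 470 RPKM (log2 change 2.97, limma adjusted p = 0.0355). With the library factor taken out none of the 3 passed (adjusted p = 0.0771, 0.0661 and 0.0607). Values that did not pass were 2.46 for Vimp, 2.44 for Selk, 1.96 for Ept1, 1.55 for Sep15, 1.54 for Selm and 1.26 for Gpx4. Txnrd1, a thioredoxin reductase, was lower, from 137 and 201 RPKM to 63.6 and 91.8 RPKM, and did not pass (log2 change -1.11).

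Other genes outside the lists rose. Clk1, a kinase of splicing factors, went from 31.9 and 25.7 RPKM to 114 and 139 RPKM (log2 change 2.10, SE 0.40, limma adjusted p = 0.0369). Creb3, a transcription factor released from the ER membrane, went from 16.9 and 10.0 RPKM to 56.9 and 118 RPKM, and Rabggtb, a subunit of the enzyme that attaches lipids to Rab proteins, from 30.8 and 25.5 RPKM to 142 and 315 RPKM. With the factor taken out Clk1 and Creb3 did not pass (limma adjusted p = 0.0732 and 0.0757). A further 242 genes were listed in both 1 h libraries and blank in both untreated ones, and 474 were listed in both untreated libraries and blank in 1 or 2 of the 1 h libraries.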
